A study of Mus musculus with 8 samples.

Results

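The response of wild-type mouse bone marrow-derived macrophages to TNF was read from 4 of the 8 small RNA libraries of the study. They were chosen by their labels as wild type, with 2 unstimulated libraries and 2 from cells given TNF for 24 hours. The other 4 libraries came from macrophages labelled RBP-J KO with the genotype Rbpjf/f; LysM Cre, in which a Cre recombinase driven by a myeloid promoter removes the Notch pathway transcription factor RBP-J, and they had the same 2 treatments. They entered the fit and stand beside some values here. All mice were of a C57BL/6/129 mix, mostly C57BL/6, and all cells grew for 3 days with a culture supernatant that supplied M-CSF equivalent to 20 ng/ml. Replicate 1 of each group stands in a table of CPM (an arm's reads scaled to a common library total) for 452 mature arms, the short strands cut from the 5p or 3p side of a precursor. Replicate 2 stands in a table read as RPKM (reads scaled to the hairpin's length and the library's total) for 371 precursor hairpins. Each comparison was taken within a table, so every table gives 1 unstimulated and 1 TNF library, and the labels do not say whether replicates were separate animals or cultures. The p-values below therefore speak of the spread among these libraries alone, and that spread may be technical.

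A microRNA (miRNA) is cut from a hairpin transcript and loaded on an Argonaute protein, where its seed, bases 2 to 8 from the 5′ end, pairs with messenger RNAs and lowers their output. TNF binds its receptors on macrophages and activates the transcription factor NF-kB. Among miRNAs known as NF-kB targets, miR-155 promotes inflammatory gene expression, while miR-146a and miR-146b restrain receptor signalling through the adaptors TRAF6 and IRAK1. Macrophages are also the precursors of osteoclasts, and TNF can promote that fate.

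The mature sequences of the miRNAs that the comparison turns on are given first, from RefSeq on GRCm38.p6, written 5′ to 3′ with the seed in capitals. The first 5 are arms of the miRNAs that led those higher with TNF in both tables, ranked with arms summed. The miR-365-3p arm printed here had only 2 reads without and 14 with TNF in wild type in the CPM table. Most miR-365 reads there were of miR-365-2-5p, with 13 and 70.
miR-129-5p: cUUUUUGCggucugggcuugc
miR-155-5p: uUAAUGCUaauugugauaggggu
miR-101b-3p: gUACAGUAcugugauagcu
miR-365-3p: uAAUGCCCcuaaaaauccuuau
miR-99b-5p: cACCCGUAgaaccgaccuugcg

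The next are members of seed groups whose summed CPM was lower with TNF. By RPKM the miR-125 family sum was higher, at 141588 without and 226784 with TNF. The miR-15/16 family had 16636 and 17964.5 RPKM, and the miR-146 family 213144 and 207378 RPKM. They are shown because miR-146a and miR-146b share GAGAACU, and miR-15b and miR-16 share AGCAGCA. miR-351 shares CCCUGAG with miR-125a, which lay above the table medians where miR-351 lay below them.
miR-146a-5p: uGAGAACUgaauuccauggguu
miR-146b-5p: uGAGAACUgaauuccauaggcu
miR-15b-5p: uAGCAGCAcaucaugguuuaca
miR-16-5p: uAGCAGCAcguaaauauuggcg
miR-503-5p: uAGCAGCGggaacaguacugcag
miR-351-5p: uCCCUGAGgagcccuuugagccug
miR-125a-5p: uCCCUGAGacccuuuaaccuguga

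The last are shown because they stood far apart between the tables or were abundant and higher with TNF in the CPM table.
miR-132-3p: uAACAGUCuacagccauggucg
miR-212-3p: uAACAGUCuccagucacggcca
miR-24-3p: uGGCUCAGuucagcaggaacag
miR-7a-5p: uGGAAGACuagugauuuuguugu
miR-221-3p: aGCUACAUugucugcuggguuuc
miR-222-3p: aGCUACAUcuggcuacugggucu
let-7e-5p: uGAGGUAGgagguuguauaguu

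The mature miR-155-5p lies at chr16:84714143-84714165 on the plus strand, and GENCODE M21 places its hairpin within the noncoding gene Mir155hg. miR-99b-5p (chr17:17830194-17830215), let-7e-5p (chr17:17830366-17830387) and miR-125a-5p (chr17:17830817-17830840) follow each other on the plus strand of chromosome 17. miR-132-3p (chr11:75173723-75173744) and miR-212-3p (chr11:75173443-75173464) are likewise neighbours on chromosome 11 and share the seed AACAGUC. miR-351-5p (chrX:53053315-53053338) and miR-503-5p (chrX:53054027-53054049) lie close together on the minus strand of chromosome X.

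The tables differed in depth and in spread. The CPM libraries held 321326 reads without and 562311 reads with TNF, so that 1 read was worth 3.11 and 1.78 CPM. The RPKM libraries held about 21712259 and 19340684 reads, of which the listed miRNAs took 49.98% and 65.67%. In the CPM table the library of unstimulated wild type stood apart. Its log2 ratios to each of the other 3 had an SD of 1.257 to 1.617 over 197 arms, against 0.708 to 1.085 among the rest. In the RPKM table the wild-type pair was the most alike of all pairs, with an SD of 0.635 against up to 1.219. No CPM contrast can be made without the library that stands apart, so knockout values of the same table are given beside many of the results that rest on it. The macrophage and myeloid markers were abundant: miR-22, miR-21a, miR-146a, miR-142a and miR-223 together had 202971 CPM without and 215885 CPM with TNF. Of the 4 muscle markers none is listed in the CPM table, and the 3 listed in the RPKM table summed to 4.32 and 5.30 RPKM. In bulk RNA, fewer cells of a type and less RNA per cell cannot be told apart.

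Ratios of TNF to unstimulated are given on the log2 scale relative to the median of their table, which was -0.33 for CPM and 0.45 for RPKM, over miRNAs with at least 20 reads in the 2 wild-type libraries together. Arms of 1 miRNA and copies of 1 hairpin were summed, and 132 miRNAs had that many reads in both tables. Only 2 of the 132, miR-129 and miR-155, stood at least 2-fold above the median in both (1.52%), and none stood 2-fold below it in both (0%). Of these 2, miR-129 reached the read minimum of the CPM table through its TNF library, with 0 and 42 reads. Another 14 were 2-fold higher in the CPM table alone and 5 in the RPKM table alone, while 35 were 2-fold lower in the CPM table alone and 1 in the RPKM table alone. Of the 132, 28 lay above the median in both tables (21.2%), 29 below in both (22%) and 74 on opposite sides. Across these miRNAs, which are not replicates, the ratios of the tables had a Pearson correlation of 0.095 and a Spearman correlation of -0.015. Among the 93 miRNAs with at least 100 reads in each table, 39 were on the same side.

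**Figure D1:**
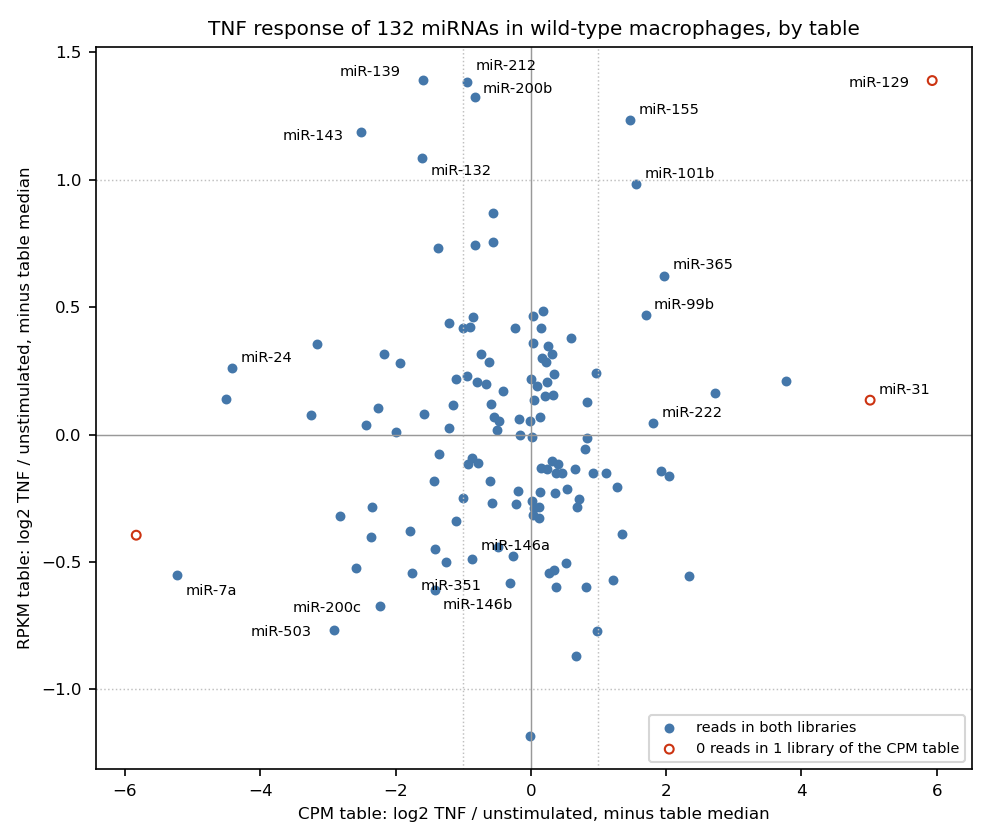
Each point is 1 of 132 miRNAs measured in both tables, with the log2 ratio of TNF to unstimulated minus the table median, from CPM on the x axis and from RPKM on the y axis; dotted lines mark 2-fold, and open symbols had 0 reads in 1 CPM library. Only miR-129 and miR-155 lie past both upper 2-fold lines, miR-101b lies just short, and 74 points lie in the quadrants of opposite sign.

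In limma over the 184 miRNAs of both tables with a mean of at least 5, fitted on log2(value + 1) with the table as a block, none passed a Benjamini-Hochberg adjusted p of 0.05 for the wild-type TNF contrast (0%), the lowest adjusted p being 0.642. At an unadjusted p under 0.05 there were 12, of which 9 were higher (4.89%) and 3 lower (1.63%). The split moved with the scaling. It was 7 and 7 under median-of-ratios factors and 4 and 8 when libraries were rescaled to their listed miRNAs. By comparison, edgeR and DESeq2 on recovered reads called 0 at an adjusted p of 0.05, with 15 (13 higher) and 16 (5 higher) at an unadjusted p under 0.05. The adjusted count became 16 without the unstimulated wild-type RPKM library, 7 without the wild-type TNF RPKM library and 2 without either knockout TNF library, and stayed 0 without each of the other 4 libraries.

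The miRNA with the highest value above the medians in both tables was miR-129, which is best known from brain. It had 0 CPM without and 74.7 CPM with TNF, from 0 and 42 reads, and 85.9 and 308 RPKM. Its CPM difference was 8-fold when the empty library is set to a floor of 3 reads, and the lower end of its 95% counting interval was 6.22-fold. The RPKM ratio was 3.58-fold, with a 95% counting interval of 3.01 to 4.29. Intervals here are exact conditional binomial intervals, and they cover counting error only. The fitted log2 fold change was 4.04 ± 1.21 (SE from the fit to all 8 libraries, limma adjusted p = 0.642), a value that depends on the added constant. Within the tables the log2 difference was 6.24 (CPM) and 1.83 (RPKM). The fitted value was 1.99 without the unstimulated CPM library. In the knockout it was likewise absent without TNF in the CPM table, at 0 CPM, with 33.0 CPM after TNF.

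The inflammatory miRNA miR-155 had 177 CPM without and 391 CPM with TNF in replicate 1, and 2655 and 8523 RPKM in replicate 2. Both TNF libraries were above the unstimulated library of their own table, by 2.21-fold (1.64 to 3.01) and 3.21-fold (3.09 to 3.33). The fitted log2 fold change was 1.41 ± 0.54 (limma adjusted p = 0.642), and it was 1.41 without the unstimulated CPM library as well. Its level was modest beside the leading macrophage miRNAs, since miR-21a had 92780 CPM and 1280350 RPKM with TNF.

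Just short of 2-fold in both tables was miR-101b, a miRNA known to target the chromatin modifier EZH2, with relative log2 ratios of 1.56 and 0.98. It had 121 CPM without and 286 CPM with TNF, and 1579 and 4264 RPKM. Next were miR-365, which had 46.7 and 149 CPM and 15.1 and 30.9 RPKM, and miR-99b, which had 1512 and 3898 CPM and 116046 and 219223 RPKM. Of these, miR-365 reached the read minimum of the CPM table through its TNF library, with 15 and 84 reads. The relative ratios of miR-365 were 1.97 and 0.62 and those of miR-99b 1.70 and 0.47. Both libraries with TNF were thus higher for each of these 3. The knockout libraries of both tables were higher with TNF as well, at 476 and 1664 CPM and 104321 and 113312 RPKM for miR-99b. These knockout values are not relative to a table median. The knockout RPKM values of miR-99b came from 108753 and 107670 reads, in libraries whose listed miRNAs took 44.6% and 53.2% of reads. The other 5 that led this side, let-7c, miR-1964, miR-125a, let-7i and miR-103, had smaller relative ratios of 0.24 to 0.38 in the RPKM table, and miR-125a was at 5536 and 5257 CPM without and with TNF.

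**Figure D2:**
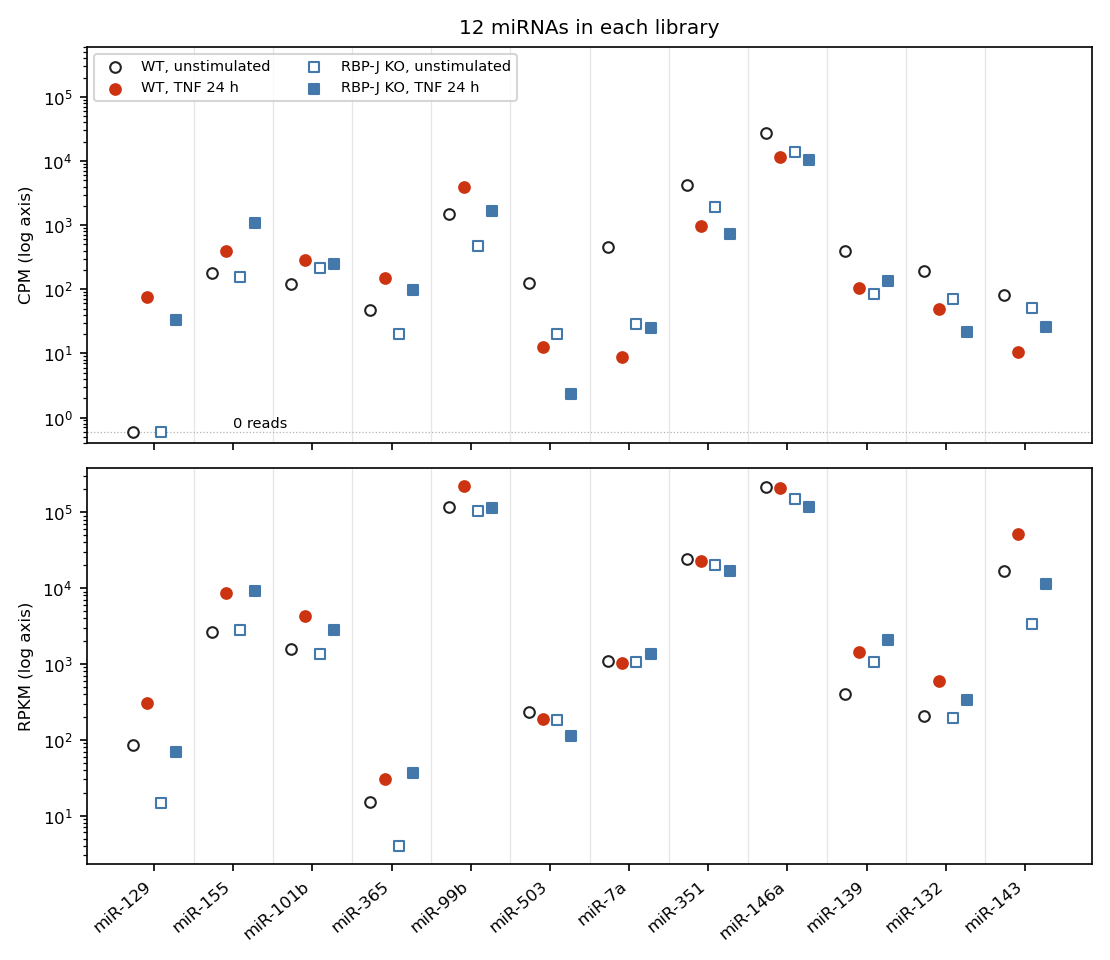
Values of 12 miRNAs in every library, as CPM in the upper panel (replicate 1) and RPKM in the lower panel (replicate 2), both on log axes, with open symbols for unstimulated and filled symbols for TNF; values of 0 are drawn on the dotted line. miR-155 lies higher with TNF in all 4 pairs, whereas miR-7a at 461 CPM stands out in the unstimulated wild-type CPM library alone, and miR-139, miR-132 and miR-143 are lower with TNF in the wild-type CPM pair but higher in the RPKM pair.

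On the lower side the ratios of the tables differed most in size. miR-503, a member of the extended miR-15/16 group that restrains the cell cycle, had 124 CPM without and 12.4 CPM with TNF but 232 and 186 RPKM. Its neighbour miR-351 had 4164 and 979.9 CPM and 24037 and 22491 RPKM. Both were lower with TNF in both tables, by 10-fold and 1.25-fold for miR-503 and by 4.25-fold and 1.07-fold for miR-351. miR-503 was also lower with TNF in the knockout, at 19.8 and 2.36 CPM and at 183 and 113 RPKM. The knockout had 1892 and 733 CPM of miR-351.

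The NF-kB feedback miRNAs miR-146a and miR-146b were not higher after 24 hours of TNF. miR-146a had 27035 CPM without and 11753 CPM with TNF, and 213134 and 207369 RPKM. miR-146b had 21399 and 6342 CPM but only 10.1 and 9.01 RPKM, from 24 and 19 reads. In the knockout CPM libraries miR-146a had 13717 and 10341 CPM and miR-146b 8841 and 4861 CPM, so that unstimulated wild type had the highest level of each in that table. The tables thus place miR-146b at very different levels beside miR-146a, which has nearly the same mature sequence as printed above, and reads of near-identical miRNAs can be assigned to either. The fitted log2 fold change of miR-146a was -0.62 ± 0.34 (limma adjusted p = 0.642), and it was -0.26 without the unstimulated CPM library.

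miR-7a, known as a brake on growth factor signalling, had the largest gap between tables among the leading 10 of this side. It had 461 CPM without and 8.90 CPM with TNF, from 148 and 5 reads, but 1091 and 1015 RPKM. The knockout CPM libraries had 28.3 and 24.7 CPM, so the unstimulated wild-type library alone was high. Its fitted log2 fold change was -2.82 ± 1.14 (limma adjusted p = 0.642) and -0.52 without that library. The remaining members of the 10 were miR-200c, miR-467c, miR-374b, miR-15b and miR-130b, with relative ratios of -0.67 to -0.44 in the RPKM table. For all 10 the size of the fitted fold change was smaller without the unstimulated wild-type CPM library, and for miR-200c the value then turned to 0.20.

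The 5 miRNAs named for the largest opposite ratios were miR-139, miR-143, miR-132, miR-212 and miR-200b. miR-139 had 395 CPM without and 103 CPM with TNF but 403 and 1445 RPKM. miR-132, induced by CREB and by inflammatory receptors, had 193 and 49.8 CPM but 205 and 593 RPKM, and its neighbour miR-212 had 43.6 and 17.8 CPM but 68.8 and 245 RPKM. In each case the TNF library was the lower one in the CPM table and the higher one in the RPKM table. The knockout showed the same opposition for miR-132, with 70.8 and 21.2 CPM and 195 and 337 RPKM, but not for miR-139, where both tables were higher with TNF, from 85 to 134 CPM and from 1059 to 2056 RPKM.

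The other opposite members are markers of other cells. miR-143, a marker of fibroblasts and smooth muscle, had 80.9 and 10.7 CPM but 16593 and 51576 RPKM, and the epithelial marker miR-200b had 156 and 69.4 CPM but 243 and 833 RPKM. The stromal markers summed to 514 CPM without and 128 CPM with TNF over the 5 listed there, and to 21490 and 56646 RPKM over 7. The 8 epithelial markers summed to 358 and 97.8 CPM, and to 534 and 1283 RPKM, and 2 of them, miR-203 and miR-375, were at 0 CPM with TNF. Both marker sums were thus lower with TNF by CPM and higher by RPKM, and the stromal RPKM sum was mostly miR-143. Of the 7 stromal markers by RPKM, 6 lay above the median (49.8% over all 217). Of the 7, 2 were 2-fold higher (7.83%) and 1 was 2-fold lower (5.07%). In the knockout CPM libraries they were 275 and 173 (stromal) and 210 and 98.98 CPM (epithelial). The erythroid markers, mainly miR-486a and miR-486b, summed to 6570 CPM without and 1995 CPM with TNF, with 2631 and 2522 CPM in the knockout, and to 1688 and 2184 RPKM, while the erythrocyte miR-451a had only 3.84 and 3.59 RPKM. The 5p arms of miR-486a and miR-486b had 1051 and 1050 reads without TNF and 546 each with TNF. The same reads may thus be counted for each, which would inflate the CPM sums. The part of such cells in the TNF contrast was not tested.

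A list of 19 miRNAs known to respond to TNF or NF-kB was read next. In the CPM table, 15 had at least 20 reads. Of these, 8 were 2-fold higher (14.8% of all 162 miRNAs at that depth), 2 lower (26.5%) and 11 above the median (50%), with a median relative ratio of 1.10 that was the same with the empty library of miR-31 set to its floor. Among the 8, miR-365 and miR-31 reached the read minimum through their TNF library, with 15 and 84 and with 0 and 22 reads. In the RPKM table, 17 had enough reads. Of these, 4 were 2-fold higher (7.83% of all 217), 0 lower (5.07%) and 13 above the median (49.8%), with a median of 0.35. Of the 14 with enough reads in both tables, 8 were above both medians, against the 21.2% over all miRNAs. The 2-fold higher miRNAs in the RPKM table were miR-155, miR-132, miR-212 and miR-147, and miR-147, another miRNA induced by Toll-like receptors, had 358 and 1117 RPKM but only 3 and 9 reads in the CPM table. The annotation places its hairpin within the gene AA467197 on chromosome 2.

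Within that list the pair miR-221 and miR-222, which hold down the cell cycle inhibitor p27, had 5219 and 8922 CPM and 26976 and 75036 CPM without and with TNF. In the RPKM table miR-221 had 67437 and 82894 and miR-222 88272 and 124157, so both were higher with TNF, but relative to the table median they stood at -0.15 and 0.04. The fitted log2 fold change of miR-222 was 0.98 ± 0.36 (limma adjusted p = 0.642). miR-21a, a survival miRNA of many tissues, had 48455 and 92780 CPM and 1080900 and 1280350 RPKM, with relative ratios of 1.27 and -0.20.

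The other role lists were short. Of 6 osteoclast promoting miRNAs with enough reads in the CPM table, 4 were 2-fold higher (14.8% over all 162), namely miR-182 at 252 and 763 CPM, miR-183, miR-21a and miR-31. Of these, miR-183 and miR-31 reached the read minimum through their TNF library, with 9 and 54 and with 0 and 22 reads. In the RPKM table, 0 of 7 were 2-fold higher (7.83% over all 217), and the median was -0.14. The osteoclast restraining list held miR-155, which was higher, and miR-503, which was lower, and its medians were 0.03 and 0.35. Among the myeloid identity miRNAs, the neutrophil and monocyte miR-223 had 2515 and 1334 CPM but 33103 and 49045 RPKM, with 4522 and 989 CPM in the knockout, and the list had medians of -0.54 and 0.12. The p53 responsive list had positive medians in both tables, 0.24 over 4 miRNAs and 0.18 over 8, with 4 (50% over all 162) and 6 (49.8% over all 217) above. Its miR-34c had 3.11 and 49.8 CPM, reaching the minimum through its TNF library with 1 and 28 reads, and 1905 and 3006 RPKM. The glycolysis and lipid metabolism list likewise had medians of 0.34 and 0.36, over 4 miRNAs in each table, and the IL-4 list had 0.00 and 0.12. The hypoxia miRNA miR-210 was on opposite sides, with 324 and 509 CPM but 3945 and 3153 RPKM.

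The 12 miRNAs with an unadjusted p under 0.05 in limma held several that rested on few reads. miR-31, miR-449c and miR-127 had 0 reads in the unstimulated CPM library and 22, 12 and 3 reads with TNF, and miR-1199 and miR-2137 had 12 and 4 reads without and 0 with TNF. In the deeper RPKM table miR-31 had 1150 and 1723 RPKM and miR-1199 86.7 and 69.1, ratios of 1.5 and 0.80. miR-31 was at least 4.19-fold higher and miR-1199 at least 7-fold lower in the CPM table at a floor of 3 reads per library. miR-2137 stood out in the RPKM table too, with 73.3 and 14.1 RPKM from 105 and 18 reads, which was the lowest relative ratio of that table at -2.79. The rest were miR-155, miR-101b, miR-99b, miR-222, miR-129, miR-7a and miR-298.

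Abundance was concentrated in few miRNAs. The 10 leading miRNAs took 61.6% of the CPM without and 71.3% with TNF, and 79.9% and 78.4% of the summed RPKM. The 10 were the same with and without TNF in the RPKM table, while 6 were shared in the CPM table. miR-22, a miRNA abundant in myeloid cells, led both tables without TNF. It had 111734 and 98869 CPM, and 1536030 and 1915070 RPKM. miR-27b had 108973 and 96696 CPM and 623955 and 1049880 RPKM. Relative to the medians they lay at 0.15 and -0.13 (miR-22) and at 0.16 and 0.30 (miR-27b) on the log2 scale. By contrast miR-24 dropped out of the 10 in the CPM table, from 37199 to 1385 CPM, and stood at 7907 and 12914 RPKM. The knockout CPM libraries had 3460 and 1410 CPM of it, so that again the unstimulated wild-type library was the high one.

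**Figure D3:**
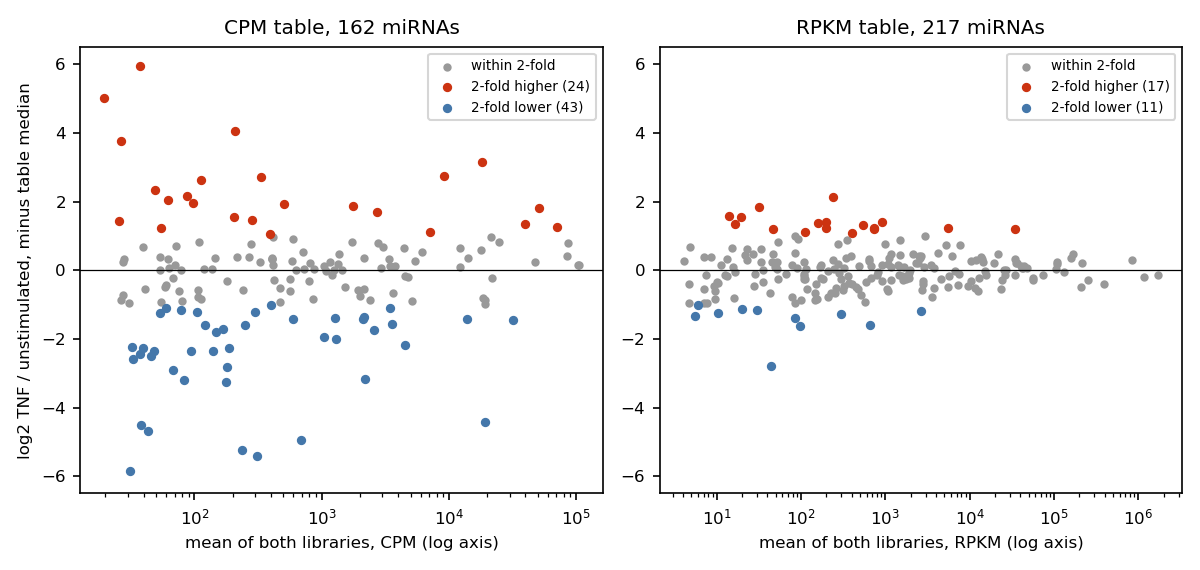
Log2 ratio of TNF to unstimulated minus the table median (y axis) against the mean of the 2 wild-type libraries (x axis, log scale) for 162 miRNAs of the CPM table and 217 of the RPKM table. In the CPM table, 24 are 2-fold higher and 43 lower, at all levels of abundance, against 17 and 11 in the RPKM table, where the most abundant miRNAs lie near 0.

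Grouped by seed, 381 of the 452 arms had a RefSeq sequence, and they held 94.4% and 93.3% of the CPM. The let-7 seed GAGGUAG went from 148406 CPM without to 209296 CPM with TNF over 9 arms, and GCUACAU, the seed of miR-221 and miR-222, from 30847 to 81730. The miR-25/92 seed AUUGCAC went from 29378 to 56162 CPM. In the other direction, the miR-15/16 seed AGCAGCA went from 51169 to 15276 CPM, GAGAACU of miR-146 from 48421 to 18095 CPM and GGCUCAG of miR-24 from 36950 to 1220 CPM. In the knockout libraries of the table GAGGUAG was lower with TNF, at 251845 and 204931 CPM, while AGCAGCA had 31141 and 21137, GAGAACU 22558 and 15202 and GGCUCAG 3307 and 1225 CPM. The GCUACAU sum was higher with TNF there, at 27522 and 45537 CPM, as was AUUGCAC at 43943 and 55333 CPM. In the RPKM table the let-7 miRNAs lay around the median, with 4 of 8 above it (49.8% over all 217). There 0 of 5 miR-15/16 miRNAs lay above it, with a median of -0.22, and the 5 of the miR-25/92 family had a median of -0.39. By CPM, 0 of the 4 miR-15/16 members with enough reads lay above the median (50% over all 162). The family thus lay below the median in both tables, but its members are few and are not separate observations, so these counts say little. For let-7 and miR-25/92 the tables were not alike. The seed CCCUGAG held miR-125a and miR-351 among its 3 arms, and their values parted as given above.

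Some miRNAs were listed in 1 table alone. Of the CPM table, 132 were, 30 of them with at least 20 reads, and they held 10.8% of the CPM without and 15.1% with TNF. miR-378a, which is produced from the Ppargc1b gene and acts on metabolism, had 4506 CPM without and 31777 CPM with TNF, a ratio of 7.05 (6.68 to 7.44). In the knockout it had 7952 and 47486 CPM. let-7e, which lies between miR-99b and miR-125a, had 2894 and 15489.5 CPM, and 3268 and 7064 CPM in the knockout. miR-6539 had 28.0 and 391 CPM, and 28.3 and 628 CPM in the knockout. It reached the read minimum through its wild-type TNF library, with 9 and 220 reads. These 3 had the highest ratios among miRNAs listed there alone, and for each both TNF libraries were above both unstimulated ones.

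The lower side of the miRNAs listed in the CPM table alone was different. miR-690 had 1332 CPM without and 33.8 CPM with TNF, miR-3473a had 613 and 10.7 CPM, and miR-3535 had 243 and 37.4 CPM. In the knockout these had 76.5 and 25.9, 42.5 and 11.8, and 8.50 and 25.9 CPM. Each was thus many-fold higher in the unstimulated wild-type library than in any other library of the table. Listed in the RPKM table alone were 153 miRNAs, 35 of them with enough reads, and they held 0.0414% and 0.0605% of the summed RPKM. miR-455, whose hairpin lies in the cartilage collagen gene Col27a1, had 69.1 and 416 RPKM, the highest relative ratio of that table at 2.14, and 19.7 and 179 RPKM in the knockout. miR-653 and miR-489, both within the calcitonin receptor gene Calcr by annotation, were on the lower side with 381 and 214 RPKM and 7.32 and 3.87 RPKM.

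The CPM table also gives both arms of a miRNA. Of 116 miRNAs with both arms listed, 57 had at least 20 reads on each arm over the 2 wild-type libraries, and 12 shifted at least 2-fold towards the 5p arm with TNF (21.1%) and 11 towards the 3p arm (19.3%). Single arms were 2-fold higher in 32 of 219 (14.6%) and lower in 53 (24.2%). The leading arm by read count changed in 7, which were miR-139, miR-185, miR-324, miR-326, miR-339, miR-511 and miR-1843b. For miR-339, miR-511 and miR-1843b the exact 95% interval of the 5p share with TNF included equal shares of the arms. These intervals were 40.6 to 77.3, 33.1 to 69.8 and 43.5 to 65.9%, so the leading arm with TNF was not settled for them. miR-185 had 36 reads of 5p and 1 of 3p without TNF but 1 and 22 with TNF, a 5p share of 97.3% (exact 95% interval 85.8 to 99.9) and 4.35% (0.110 to 21.9). miR-324 went from 85 and 19 reads to 5 and 15, a 5p share of 81.7% (72.9 to 88.6) and 25% (8.66 to 49.1). For miR-185 and miR-324 both knockout libraries were close to the wild-type TNF library in the 5p arm: miR-185-5p had 112 CPM in unstimulated wild type against 1.78, 8.50 and 5.89 CPM in the rest, and miR-324-5p had 265 CPM against 8.89, 11.3 and 10.6 CPM. For miR-511 both knockout libraries had more of the 3p arm, as unstimulated wild type did, with 62.3 CPM of 5p and 147 of 3p without TNF and 3.54 and 10.6 with TNF. For miR-139 the knockout went the way of wild type, from 36.8 CPM of 5p and 48.1 of 3p to 111 and 23.6.

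**Figure D4:**
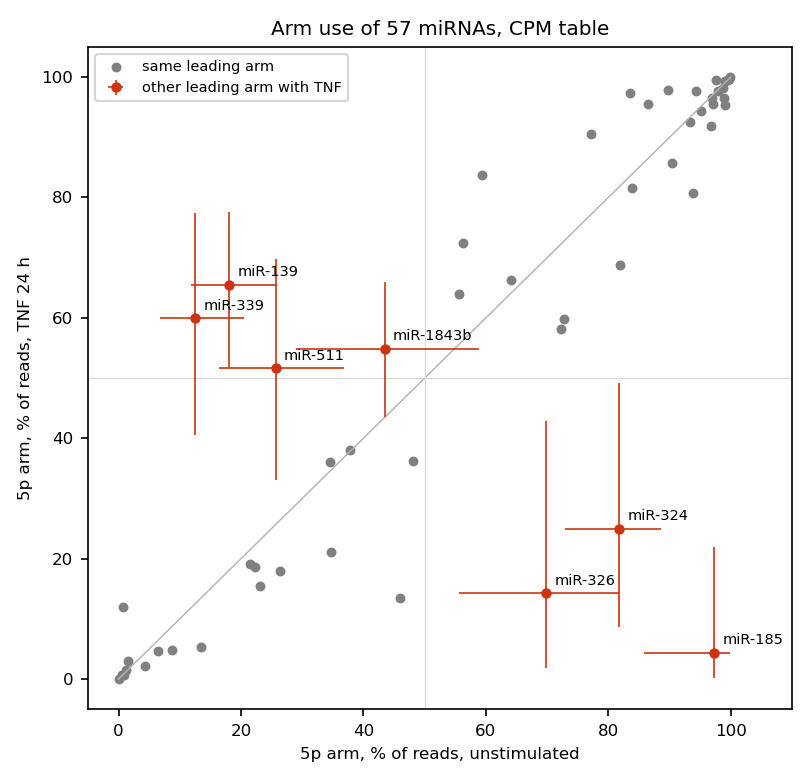
Share of reads from the 5p arm without TNF (x axis, percent) and with TNF (y axis, percent) for 57 miRNAs of the CPM table; red points with exact 95% binomial intervals mark the 7 whose leading arm by read count changed. In 23 of the 57 the ratio of the arms differed at least 2-fold, and miR-185, miR-324 and miR-326 lie far below it.

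In the RPKM table, hairpins that neighbour each other in the genome had similar ratios. There 229 hairpins had at least 20 reads, of which 17 were 2-fold higher (7.42%) and 11 lower (4.8%). Without centring on the median these counts were 33 and 3. Grouping hairpins within 10 kb on the same strand gave 38 groups of 94 hairpins, and the SD within groups was 0.282 on the log2 scale against 0.655 over all hairpins. In 29 of the 38 groups all hairpins lay on the same side of the median. Most groups were pairs, and unrelated pairs also often lie on the same side of a median, so that count alone says little. In the CPM table, 25 of these groups held 59 miRNAs with enough reads, with an SD within groups of 0.919 against 1.772 over all. There 18 of the 25 lay wholly on the same side. Neighbours often share a primary transcript, and members with similar sequence can also share reads, which was not separated here.

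**Figure D5:**
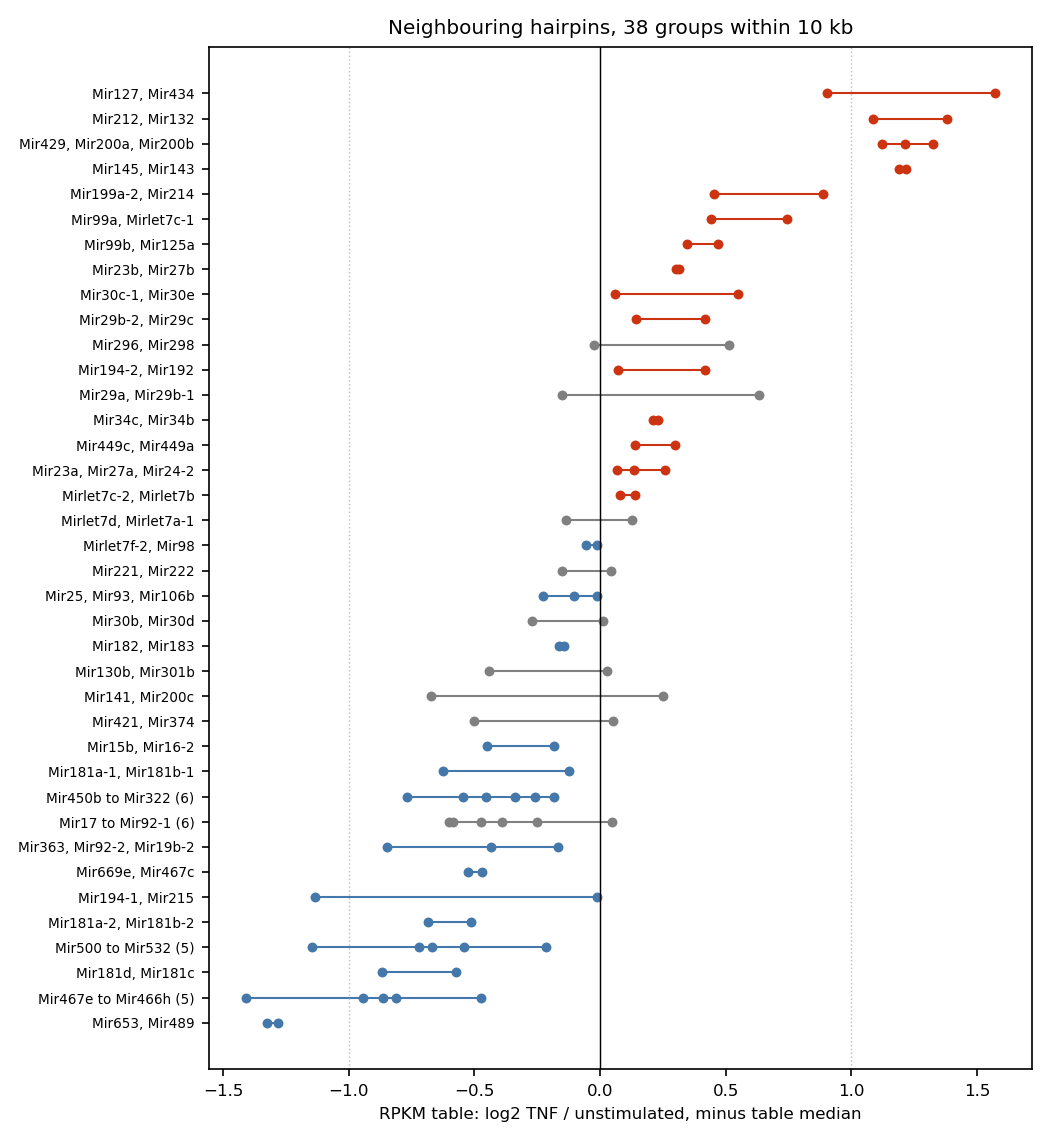
Each row is 1 of 38 groups of hairpins that lie within 10 kb on 1 strand, and points are hairpins of the RPKM table, with the log2 ratio of TNF to unstimulated minus the table median on the x axis; red rows lie wholly above and blue rows wholly below the median. miR-127 with miR-434, miR-212 with miR-132, and the miR-200b group lead the upper end, and miR-653 with miR-489 the lower end.

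The leading groups were small. Mir429, Mir200a and Mir200b on chromosome 4, which the annotation places within Ttll10, had relative ratios of 1.12 to 1.33, and Mir212 with Mir132 on chromosome 11 had 1.38 and 1.09. Mir145 and Mir143, a stromal pair, had 1.22 and 1.19. In the CPM table miR-200a and miR-429, on few reads, and miR-143 were lower with TNF, as were miR-132 and miR-212, so none of these groups was higher in both tables.

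Imprinted and X-linked clusters were read in the RPKM table. The miRNAs of the imprinted Dlk1-Dio3 region of chromosome 12 are expressed from the maternal allele. Of those listed, 4 had at least 20 reads, and all 4 were above the median (49.8% over all 217) and 3 of them 2-fold higher (7.83%). For miR-434 and miR-411 the minimum was reached through the TNF library, with 11 and 41 and with 13 and 41 reads. miR-541 had 10.7 and 53.4 RPKM, miR-434 had 5.39 and 22.6, miR-411 had 7.20 and 25.9 and miR-127 had 51.3 and 131. The 22 miRNAs of that region listed in the table summed to only 91.6 and 286 RPKM. In the knockout miR-541 had 8.95 and 8.19 RPKM and miR-127 63.0 and 48.6 RPKM.

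On chromosome X, 6 of 29 hairpins lay above the median, and the median of the 29 was -0.25. Over all miRNAs with enough reads, 49.8% of 217 lay above the RPKM median and 50% of 162 above the CPM median. Both clusters given next are among the 29, so these hairpins are not separate observations. The cluster in Clcn5 that runs from miR-500 to miR-532 had 0 of 5 above it, from miR-500 at 37.5 and 23.0 RPKM to miR-532 at 11769 and 13849 RPKM. The cluster of miR-322 and miR-503 had 0 of 6 above it. In the CPM table the latter had 4 of 5 miRNAs with enough reads below the median, whereas 2 of 2 of the former were above it. The miR-17/92 cluster of chromosome 14, whose members promote proliferation, had 0 of 6 miRNAs above the median in the RPKM table, with miR-92a at 381448 and 397127 RPKM, but 4 of 6 in the CPM table, where miR-92a had 26397 and 53347 CPM.

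Whether the response of wild type differed from that of the knockout was tested by the interaction in the same limma fit. Of the 184 miRNAs, 0 passed an adjusted p of 0.05 (0%), and none had an unadjusted p under 0.05 (0%). Without the unstimulated wild-type RPKM library 2 passed, and 1 passed without the wild-type TNF RPKM library. For miR-155 the difference between genotypes was 0.83 ± 0.76 (limma adjusted p = 0.988), with a TNF effect higher in the knockout, where it had 156 and 1075 CPM and 2814 and 9177 RPKM. For miR-129 it was -0.41 ± 1.72 (limma adjusted p = 0.988). A difference of the size of these errors was not detectable with 2 libraries a group.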

How the data were processed

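Small RNA was sequenced from bone marrow macrophages with TruSeq small RNA libraries, per the labels' protocols, with CASAVA 1.8.2 listed in the submitters' processing notes. No aligner, counter or build is named in the sources used here. The authors deposited CPM per mature arm (replicate 1), from which whole reads were recovered (100% of low values whole at a tolerance of 0.1 reads), and a table without a unit name (replicate 2). The latter deposited values were read as RPKM, since 94.3% to 95.2% of low values were whole with GENCODE M21 lengths, which placed 363 of 371 identifiers.

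limma 3.58.1 in R 4.3.3 was fitted to log2(value + 1) for 184 of the 197 miRNAs in both tables, with 4 groups of all 8 libraries and the table as block, two-sided, with Benjamini-Hochberg adjustment. edgeR 4.0.16 and DESeq2 1.42.0 were alternatives on recovered reads. The steps were tested on simulated data. Ratios within a table used 0.5 reads as pseudocount. Named miRNAs were the 10 leading on each side in both tables, the 5 most opposite, the 5 leading per side in 1 table, 5 by arm ratio, the 10 most abundant, those with an unadjusted p under 0.05, and list members. Members and lists were chosen with earlier results of these data known. Replicate numbers coincide with the tables, and deviations of same-numbered libraries from group means correlated at 0.748 to 0.915, which includes the change of unit.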

Additional observations from a re-analysis of the deposited data

Results flagged for a closer look

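One result stood out by its direction in the 2 genotypes. miR-127 of the Dlk1-Dio3 region was higher with TNF in both tables in wild type, by 2.66 (CPM, from 0 and 3 reads) and 1.34 (RPKM) on the log2(value + 1) scale, and lower in both tables in the knockout, by -0.81 (CPM) and -0.37 (RPKM). The knockout CPM value rests on 1 read in each library, so it reflects the depths of those libraries, and the knockout RPKM values rest on 66 and 46 reads. The difference of knockout minus wild type was -2.59 in limma, with an adjusted p of 0.988, so the test of the difference itself did not pass.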

How the results depend on the processing

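No miRNA passed for TNF in wild type in any setting that kept all 8 libraries, nor with the 4 wild-type libraries alone. Leaving out 1 library gave 0 to 16 adjusted calls, 1 to 48 with an unadjusted p under 0.05, and 0 to 2 for the interaction. The unadjusted count of 12 was 0 with no replicate block and 5 with wild-type libraries only. Since the block is also the unit, no fit without it separates pairing from scale. In both tables, the 2 higher miRNAs became 4 without centring, 4 at 1.5-fold, 1 at 100 reads and 5 with no minimum, and the 0 lower became 3 at 1.5-fold and 6 with no minimum. The 32 higher arms became 56 at 1.5-fold, 19 at 100 reads and 118 with no minimum, and the 53 lower became 29 at 100 reads and 114 with no minimum. Without centring the arms split into 26 higher and 74 lower. The 17 higher hairpins became 33 without centring, 33 at 1.5-fold and 43 with no minimum, and the 11 lower became 3, 35 and 37, and 7 at 100 reads. The 27 miRNAs followed here were named for the same direction in both tables or for an unadjusted p under 0.05 in this fit. Their direction in the alternatives was therefore largely fixed by that choice, and 480 of 484 alternative values kept it. The rest ranged over single libraries left out, for miR-1964 from -0.15 (without the wild-type TNF RPKM library) to 0.91, for miR-103 from -0.12 (same library) to 0.82, for miR-125a from -0.21 (without the unstimulated wild-type RPKM library) to 0.94, and for miR-200c from -2.95 to 0.20 (without the unstimulated wild-type CPM library); the cause was not tested. The median over all 184 log2 fold changes was -0.08, and 0.09 with median-of-ratios scaling, -0.26 after rescaling, 0.32 with edgeR, 0.23 and 0.25 without the unstimulated and the TNF wild-type CPM library, and -0.51 and -0.49 without those of the RPKM table. Depth limits the CPM table, where 233 of 452 arms had under 20 reads in the 2 wild-type libraries.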

Other observations

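Markers of further cell types are given as values without and with TNF. The liver markers miR-122, miR-192 and miR-194 summed to 495 and 405 CPM and to 4456 and 8102 RPKM, nearly all of it miR-192, which had 4411 and 8040 RPKM. The endothelial and platelet marker miR-126a had 24.9 and 8.89 CPM and 275 and 236 RPKM. The lymphoid markers summed to 21757 and 15715 CPM and to 23615 and 29638 RPKM.

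Several families had small spreads within the RPKM table. All 4 miR-181 miRNAs lay below its median, which was -0.58 for them, while all 4 lay above the median of the CPM table. Both miR-103 and miR-107 lay above both medians, with medians of 0.34 and 0.20. In the Sfmbt2 intron cluster of chromosome 2, a large rodent family of near-identical hairpins whose reads can be shared, 0 of 7 miRNAs with enough reads lay above the RPKM median. The shares above the median over all miRNAs with enough reads were 49.8% of 217 by RPKM and 50% of 162 by CPM. Members of a family or cluster are not separate observations, so these counts are descriptions only. Across 194 arms the relative CPM ratio had a Pearson correlation of -0.19 with GC content, given as a description of 1 pair of libraries.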
